A study of Mus musculus with 4 samples.

Results

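Neutrophils carry their enzymes and antimicrobial proteins in granules, and 10 genes of these granule and cytosolic proteins are described here in single cells of injured muscle. They were the rows of the deposited counts with the symbols *Mpo*, *Elane*, *Prtn3*, *Ctsg*, *Ltf*, *Camp*, *Ngp*, *Mmp8*, *S100a8* and *S100a9*, 10 of 32285 genes in all. Each was followed in granulocyte progenitors and in neutrophils, 350 and 961 of the 57155 cells that passed the filters, with the cells chosen by marker genes that include none of the 10. The study took tibial muscle of *Nse-Bmp4* C57BL/6 mice aged 6 to 8 weeks, in which the neuron specific enolase promoter drives *Bmp4*, before injury (Uninjured) and on day 1, day 3 and day 7 after injury (1, 3 and 7 dpi) by cardiotoxin, a snake venom toxin that kills muscle fibres. All 4 groups carried the transgene, each was 1 library from a pool of 3 muscles, and no library came from mice without it. Time point and library therefore cannot be told apart, no test between time points was possible, and every interval given is a 95% interval that covers counting error only.

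Granules form one after another while a neutrophil matures in bone marrow. Azurophil granules are filled first, at the promyelocyte stage, with myeloperoxidase (*Mpo*) and the serine proteases neutrophil elastase (*Elane*), proteinase 3 (*Prtn3*) and cathepsin G (*Ctsg*). Specific granules follow at the myelocyte and metamyelocyte stages with lactoferrin (*Ltf*), the cathelicidin *Camp* and neutrophilic granule protein (*Ngp*), and the collagenase *Mmp8* is made late. *S100a8* and *S100a9* encode the paired calcium-binding proteins of calprotectin, which fill the cytosol. Messenger RNA for granule proteins marks the stage at which a protein is made, whereas the protein itself stays in the mature cell.

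The 10 genes lie on 5 chromosomes of GRCm38 (GENCODE M21). *Prtn3* (ENSMUSG00000057729, chromosome 10, 79874476 to 79883174) and *Elane* (ENSMUSG00000020125, chromosome 10, 79886247 to 79888215) are neighbours with 3072 bases between them. *S100a8* (ENSMUSG00000056054, chromosome 3, 90668978 to 90670035) and *S100a9* (ENSMUSG00000056071, chromosome 3, 90692632 to 90695721) have 22596 bases between them. *Mmp8* (ENSMUSG00000005800, 7558456 to 7568485), *Camp* (ENSMUSG00000038357, 109847379 to 109849617), *Ngp* (ENSMUSG00000032484, 110419747 to 110423012) and *Ltf* (ENSMUSG00000032496, 111019271 to 111042767) are all on chromosome 9. *Mpo* (ENSMUSG00000009350) is on chromosome 11, 87793581 to 87804413, and *Ctsg* (ENSMUSG00000040314) on chromosome 14, 56099881 to 56102574. RefSeq promoters were found for all 10, and the 250 bases before the RefSeq start of the 4 azurophil genes are shown because these 4 genes are low together in neutrophils and high together in progenitors. Some RefSeq starts differ from the GENCODE positions above. The *Prtn3* stretch lies inside the gene as given there, and those of *Mpo* and *Elane* run past the given gene starts. Capitals mark GAGGAAG, a core bound by ETS factors such as PU.1, on either strand.
Mpo (GRCm38.p6, chr11:87793534-87793783, plus strand): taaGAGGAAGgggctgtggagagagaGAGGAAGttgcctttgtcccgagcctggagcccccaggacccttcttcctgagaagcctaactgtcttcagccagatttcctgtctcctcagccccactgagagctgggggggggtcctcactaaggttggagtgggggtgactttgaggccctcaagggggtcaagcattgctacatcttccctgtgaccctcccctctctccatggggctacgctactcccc
Elane (GRCm38.p6, chr10:79886062-79886311, plus strand): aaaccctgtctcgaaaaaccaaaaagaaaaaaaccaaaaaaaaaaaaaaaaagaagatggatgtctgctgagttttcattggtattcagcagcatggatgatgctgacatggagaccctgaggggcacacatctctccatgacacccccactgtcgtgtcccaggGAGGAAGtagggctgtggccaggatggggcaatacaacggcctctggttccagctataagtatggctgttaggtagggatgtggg
Prtn3 (GRCm38.p6, chr10:79879417-79879666, plus strand): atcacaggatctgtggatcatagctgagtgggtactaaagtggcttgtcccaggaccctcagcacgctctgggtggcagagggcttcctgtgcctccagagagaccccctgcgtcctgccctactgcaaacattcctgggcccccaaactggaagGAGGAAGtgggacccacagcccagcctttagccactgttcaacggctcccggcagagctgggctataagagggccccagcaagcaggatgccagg
Ctsg (GRCm38.p6, chr14:56102575-56102824, minus strand): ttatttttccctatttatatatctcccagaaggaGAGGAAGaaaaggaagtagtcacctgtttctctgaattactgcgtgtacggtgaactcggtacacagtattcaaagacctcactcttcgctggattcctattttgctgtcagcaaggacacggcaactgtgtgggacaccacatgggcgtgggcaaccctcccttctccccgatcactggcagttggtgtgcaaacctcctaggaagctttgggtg
GAGGAAG or its reverse complement CTTCCTC stood in the 250 bases before the start of 6 of the 10 genes, which were the 4 azurophil genes, *Mmp8* and *S100a8*. Of 32851 promoters of the same length in the table, 10.6% held it. TTNNGCAA or its reverse complement TTGCNNAA, letters of a C/EBP element, stood in 4 of the 10, *Ltf*, *Ngp*, *Mmp8* and *S100a9*, and in 9.56% of all promoters. *Mmp8* held both, at 220 and 19 bases before its start, without overlap. A match describes the letters only.

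A cell was called a granulocyte progenitor or a neutrophil when at least 3 genes of that list had a UMI (a unique molecular identifier, which counts 1 captured transcript) and no other of 15 class lists was detected to a larger share. The progenitor list held 9 genes, among them the early myeloid genes *Ms4a3*, *Prss57* and *Myb*, and the neutrophil list 10, among them *Csf3r*, *Cxcr2* and *Hdc*. *Prss57* on the progenitor list and *Mmp9* and *Cd177* on the neutrophil list are counted among the other granule genes below. A contrast of granule genes between the gates is therefore not independent of how the cells were chosen. Granulocyte progenitors were 0.0179%, 1.19%, 1.64% and 0.00454% of the cells of Uninjured, 1, 3 and 7 dpi, or 2, 123, 224 and 1 cells. Neutrophils were 0.475%, 4.51%, 2.44% and 0.499%, or 53, 466, 332 and 110 cells. In the progenitors *Myb*, a transcription factor of immature blood cells, had a UMI in 95.1% of cells at 1 dpi and 86.6% at 3 dpi. The other genes of the list were detected in fewer cells. *Prss57* had a UMI in 82.9% and 73.7%, *Ms4a3* in 75.6% and 81.25%, and *Kit* in 71.5% and 56.7%. *Cebpe* had one in 61.8% and 63.4% and *Gfi1* in 59.35% and 47.8%. *Cd34* had one in 49.6% and 42.4%, *Fcnb* in 48.8% and 51.8%, and *Itgb2l* only in 16.3% and 20.1%. In the neutrophils *Csf3r*, the G-CSF receptor, had one in 79.2%, 87.6%, 67.8% and 87.3% of cells of the 4 libraries, but *Ly6g*, a surface marker of mature mouse neutrophils, only in 52.8%, 50.6%, 40.4% and 13.6%. Progenitors of other blood lineages were in the same libraries: erythroid cells numbered 1, 20, 23 and 1, and B cells with 2 or more of *Rag1*, *Vpreb1*, *Igll1* and *Dntt* numbered 1, 52, 28 and 3. These cells were most frequent in the libraries with the most granulocyte progenitors, and their part in the results was not tested. The median UMIs per cell were 20845 and 11980 in progenitors of 1 and 3 dpi, against 4006 and 1907 in the neutrophils of the same libraries. Pairs of libraries shared 30 to 95 barcodes.

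**Figure D1:**
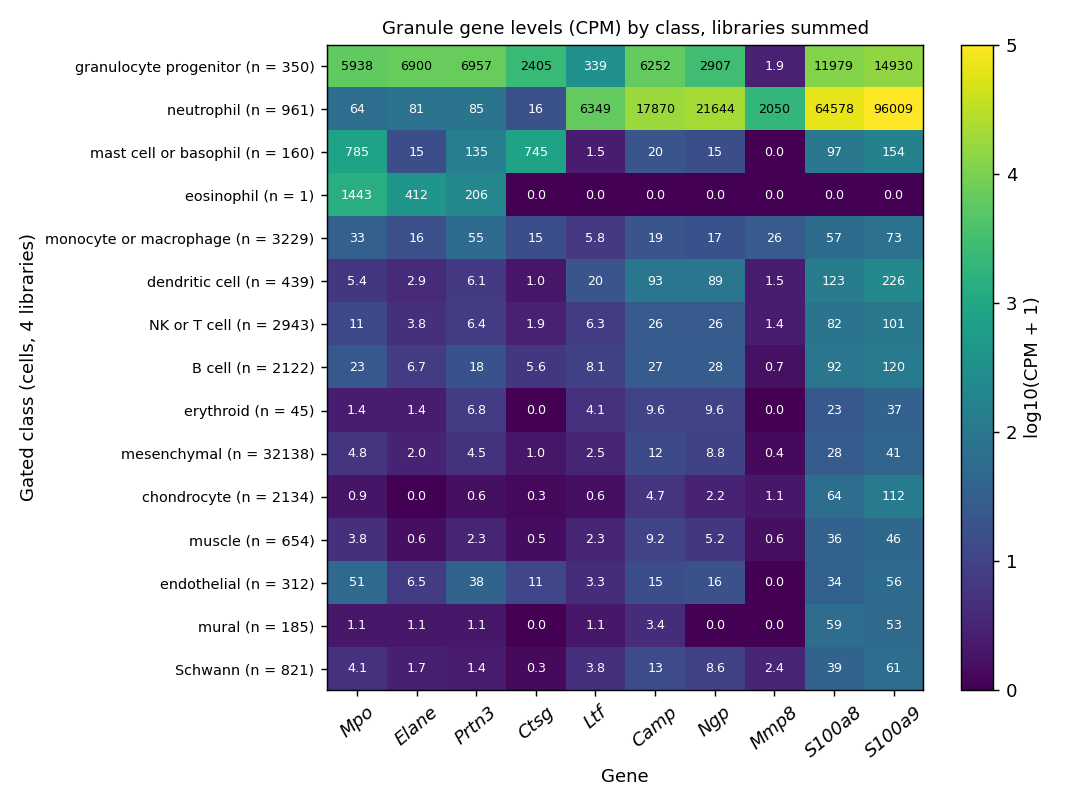
Level of each of the 10 genes (columns) in 15 gated classes (rows), as CPM (UMIs of the gene per 1000 times 1000 UMIs of the class) printed in each field and as log10(CPM + 1) in colour, with the 4 libraries summed. The 4 azurophil genes are highest in granulocyte progenitors, and the other 6 in neutrophils; the eosinophil row is 1 cell.

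Azurophil genes marked the progenitors. The level of a gene in a class is its UMI total there per 1000 times 1000 UMIs of all genes in the same cells (CPM). At 1 dpi *Mpo*, which makes hypochlorous acid from hydrogen peroxide, stood at 6222 CPM (95% interval 6124 to 6320) in progenitors and 14.5 CPM (9.93 to 20.5) in neutrophils, and at 3 dpi at 5711 and 213 CPM. *Elane*, the elastase, stood at 6707 and 5.90 CPM at 1 dpi and at 7065 and 300.0 CPM at 3 dpi. *Prtn3*, its neighbour on the chromosome, stood at 6659 and 15.9 CPM at 1 dpi and at 7240 and 287 CPM at 3 dpi. *Ctsg*, a chymotrypsin-like protease of the same granules, stood at 2026 and 4.53 CPM at 1 dpi and at 2744 and 51.8 CPM at 3 dpi. All 4 genes were thus high in progenitors of both libraries and low in neutrophils. In neutrophils all 4 were lower at 1 dpi than at 3 dpi, but 10 cells held most of the 3 dpi UMIs. Without these 10 cells the sum of the 4 stood at 29.5 CPM in the other 322 neutrophils of 3 dpi. In all 466 neutrophils of 1 dpi it stood at 40.8 CPM. There the 10 cells with the most azurophil UMIs were kept, and they held 39 of the 90. The 29.5 and 40.8 CPM therefore do not give a direction between the libraries. With all cells kept, the sum was 530-fold higher in progenitors than in neutrophils at 1 dpi (431 to 659). At 3 dpi it was 26.7-fold higher (24.9 to 28.7).

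Specific granule genes and *S100a8* and *S100a9* ran the other way. *Ltf*, which binds iron, stood at 393 CPM in progenitors and 6813 CPM in neutrophils at 1 dpi, and at 294 and 6962 CPM at 3 dpi. *Ngp*, a cystatin-related protein of these granules, stood at 2929 and 22773 CPM at 1 dpi and at 2923 and 22123 CPM at 3 dpi. *Camp*, the precursor of an antimicrobial peptide, stood at 4983 and 16648 CPM at 1 dpi and at 7466 and 23749 CPM at 3 dpi. *Camp* was the member that differed least between the classes, 3.34-fold lower in progenitors at 1 dpi (interval of the ratio 0.293 to 0.305) and 3.18-fold lower at 3 dpi. *Mmp8*, which cuts fibrillar collagen, differed most, with 2 UMIs in all progenitors of 1 dpi against 5042 in the neutrophils, a ratio of 0.00035 (4.2e-05 to 0.0013). At 3 dpi progenitors had 8 UMIs of *Mmp8* and neutrophils 1850, a ratio of 0.0014 (0.00061 to 0.0028). *S100a8* was 5.03-fold lower in progenitors at 1 dpi and 4.31-fold lower at 3 dpi, and *S100a9* was 6.71-fold and 5.48-fold lower. A minority of the progenitors carried these sums. *S100a8* and *S100a9* together made up a median of 0.103% of the UMIs of a progenitor at 1 dpi, with quartiles at 0.0117% and 1.85% and a highest cell at 29.8%, against a median of 15.1% in neutrophils. At 3 dpi the medians were 0.174% and 12.1%, so the typical cells of the classes lay further apart than the sums. The specific granule genes were spread unevenly over neutrophils too. Together they made up a median of 0.457% of the UMIs of a neutrophil at 1 dpi, with an upper quartile of 6.01%. At 3 dpi the median was 0.684% and the upper quartile 8.12%, so their sums are not the level of a typical neutrophil.

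With a difference of at least 4-fold counted as a call, 4 of the 10 genes were higher in progenitors at 1 dpi, the azurophil genes, where 24.3% of 9577 genes tested were. The 5 that were lower were *Ltf*, *Ngp*, *Mmp8*, *S100a8* and *S100a9*, where 7.58% of all genes were. The same 4 and 5 genes were called at 3 dpi, against 13.8% and 6.39% of 9266 genes. The median log2 ratio over all genes tested was 0.77 at 1 dpi and 0.49 at 3 dpi, so a typical gene also stood higher per UMI in progenitors. Summed over the 4 libraries the same 4 and 5 genes were called, against 20.6% higher and 7.32% lower of 10793 genes, and the log2 ratio of the azurophil genes was 6.50, of the specific granule genes -2.33 and of *S100a8* and *S100a9* -2.58. The azurophil ratio rested on which library gave the neutrophils: it was 9.24 without 3 dpi and 5.28 without 1 dpi. The ratio of the specific granule genes shrank to -1.34 when each cell was thinned to 1000 UMIs and so counted alike.

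Most neutrophils had no azurophil UMI. At 1 dpi the 4 genes together stood at 40.8 CPM (32.8 to 50.2) in neutrophils and at 24.7 CPM in NK and T cells, which do not make them. Of the 90 UMIs in these neutrophils 10 cells held 39, a spread between cells that the interval does not cover. The level of free RNA in the droplets was not measured. At 1 dpi 13.1% of 466 neutrophils and 11.95% of 887 NK and T cells had a UMI of any of the 4, at medians of 4006 and 4500 UMIs per cell. At 3 dpi the neutrophils stood at 852 CPM (793 to 914) and NK and T cells at 40.5 CPM. At 3 dpi, however, 10 of the 332 neutrophils held 747 of the 772 azurophil UMIs, or 96.8%, and a single cell held 328. The rise in the 3 dpi sum was thus carried by 10 cells. In Uninjured 1 azurophil UMI was counted over 53 neutrophils and at 7 dpi 3 over 110. No UMI of *Mpo*, *Elane* or *Ctsg* was counted in either of these libraries, which at a floor of 3 UMIs per library allows up to 12.96 CPM of each in Uninjured and 15.9 CPM at 7 dpi.

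Within the progenitor gate cells differed widely. The azurophil genes made up a median of 1.68% of the UMIs of a progenitor at 1 dpi, with quartiles at 0.195% and 3.53% and a highest cell at 5.35%. At 3 dpi the median was 2.09%, the quartiles 0.573% and 3.41% and the highest cell 6.71%. The specific granule genes had medians near 0, 0.0050% and 0.0052%, but reached 12.6% and 13.2% of the UMIs of a cell. After thinning to 1000 UMIs per cell, 64.2% of 123 progenitors of 1 dpi had azurophil UMIs without specific ones (55.1% to 72.7%) and 18.7% had both (12.2% to 26.7%). At 3 dpi these were 57.0% and 29.1% of 223 progenitors. Specific without azurophil UMIs occurred in 5.69% and 4.48%, and neither in 11.4% and 9.42%. In neutrophils specific without azurophil UMIs was the most frequent state in Uninjured, 1 and 3 dpi, at 56.6%, 73.4% and 73.2%, and at 7 dpi it fell behind neither, at 25.6% against 73.3% of 90 cells.

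**Figure D2:**
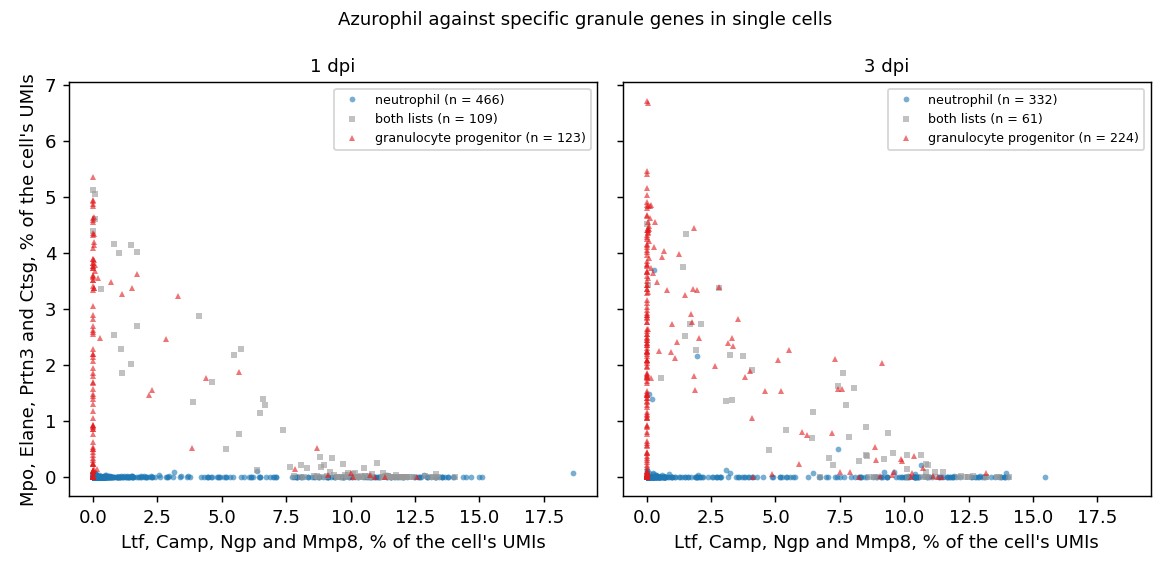
Share of the UMIs of a cell from the 4 azurophil genes (vertical axis, %) against the share from *Ltf*, *Camp*, *Ngp* and *Mmp8* (horizontal axis, %) at 1 and 3 dpi, with 1 point per cell. Most progenitors (red) line the vertical axis, up to 6.71% at 3 dpi, and most neutrophils (blue) lie along the horizontal axis. Under 0.5% azurophil UMIs have 39 of 123 progenitors at 1 dpi and 54 of 224 at 3 dpi. Of the cells with over 50% of both marker lists (grey) 84 of 109 at 1 dpi and 36 of 61 at 3 dpi do. The arc between the axes, with at least 0.5% of both groups, holds 20 and 23 of the grey cells and 12 and 38 progenitors.

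The progenitor gate held cells with and without genes of the monocyte line. *Irf8*, *Csf1r* or *F13a1* had a UMI in 64 of 123 progenitors at 1 dpi and in 87 of 224 at 3 dpi, a split by detection that also follows the depth of a cell. The azurophil genes differed little between the cells with and without these genes. *Mpo* stood at 6335 and 6066 CPM at 1 dpi and at 5531 and 5880 CPM at 3 dpi, and the widest gap was that of *Elane* at 3 dpi, 5890 against 8163 CPM. *Camp*, *Ngp* and *S100a9* differed far more. *Camp* stood at 186 CPM with and 11595 CPM without the monocyte genes at 1 dpi, and at 1063 and 13451 CPM at 3 dpi. *Ngp* stood at 35.3 and 6916 CPM at 1 dpi and at 373 and 5307 CPM at 3 dpi. *S100a9* stood at 1961 and 32599 CPM at 1 dpi and at 3461 and 26119 CPM at 3 dpi. Within a single gate, azurophil RNA was therefore found in both sets of cells, whereas *Camp*, *Ngp* and *S100a9* stood far higher in the cells without monocyte genes. Whether the sets differ in lineage or in stage was not tested. *Mmp8* had 2 UMIs with and 0 without these genes at 1 dpi, and 8 and 0 at 3 dpi. Without the cells that had monocyte genes, the log2 ratio of the specific granule genes to neutrophils was -1.32 and that of *S100a8* and *S100a9* -1.68.

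**Figure D3:**
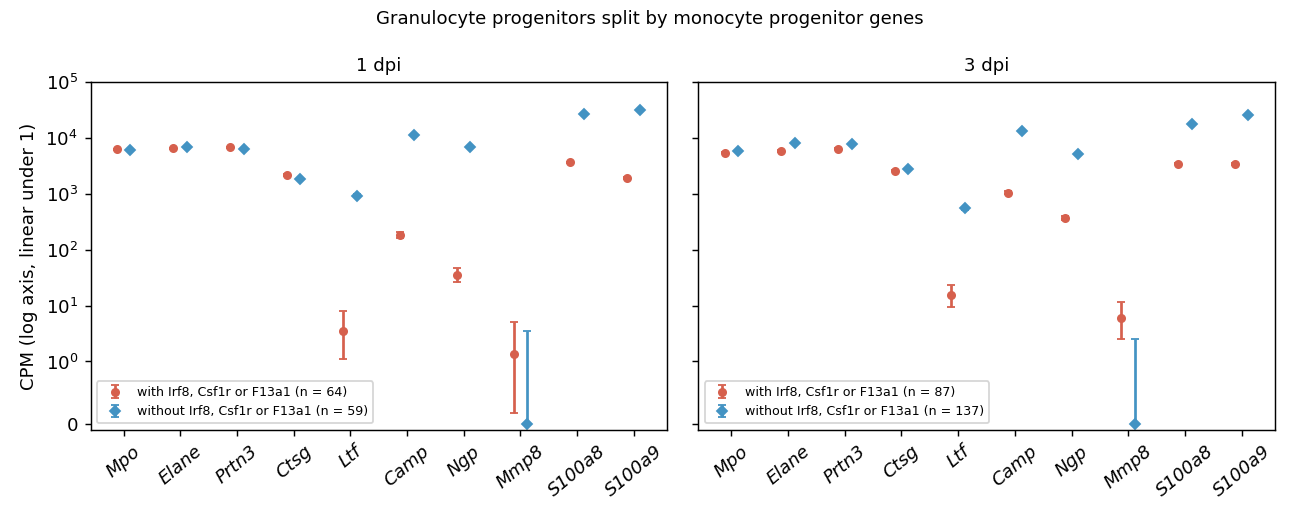
CPM of each gene (vertical axis, log scale that is linear under 1) in granulocyte progenitors with and without a UMI of *Irf8*, *Csf1r* or *F13a1*, at 1 and 3 dpi, with 95% counting intervals. The 4 azurophil genes nearly coincide, while *Ltf*, *Camp*, *Ngp*, *S100a8* and *S100a9* are higher in the cells without these genes and *Mmp8*, with at most 8 UMIs, is not.

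Outside both gates were cells with over 50% of both lists, 2 in Uninjured, 109 at 1 dpi, 61 at 3 dpi and 0 at 7 dpi, which the gate leaves out as possible doublets. Their median UMI counts, 18947 at 1 dpi and 11109 at 3 dpi, were near those of the progenitors, and their median maturity index (mature gene UMIs as a share of mature and early ones) was 0.052 and 0.061. *Camp* stood at 44258 CPM in them at 1 dpi and 46386 CPM at 3 dpi, above both the progenitors and the neutrophils of the same library. *Ngp* stood at 33690 and 22648 CPM, and *Ltf* at 6312 and 3607 CPM. The azurophil sum, at 7907 and 11518 CPM, lay between the classes, and *Mmp8*, at 18.6 and 13.4 CPM, was far below the neutrophils. Doublets among these cells were not tested for. Over all libraries 59.4% of *Camp* and 51.7% of *Ngp* UMIs were in cells with over 50% of a second list of any class, against 9.22% for *Mmp8*. When such cells were kept, the azurophil log2 ratio became 4.21, that of the specific granule genes -1.83 and that of *S100a8* and *S100a9* -1.89.

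Cells of both gates were then placed by a maturity index. It was the UMI share of 8 mature genes (*Cxcr2*, *Il1b*, *Fpr1* and others) among those and 10 early genes (*Ms4a3*, *Fcnb*, *Chil3* and others). None of the 10 granule genes enters the index, and its 5 equal ranges are cuts of a score and not cell types. Marker genes of the gates do enter it, among them *Ms4a3* and *Fcnb* of the progenitors and *Cxcr2* of the neutrophils. The last range held 0 cells of the progenitor gate at 1 dpi and 1 at 3 dpi. A difference between the first range and the last is therefore not independent of the contrast between the gates. At 1 dpi the ranges held 133, 31, 32, 28 and 361 cells and at 3 dpi 228, 36, 27, 19 and 235. In the first range 29 cells at 1 dpi and 37 at 3 dpi were from the neutrophil gate. That range held 4469 *Ltf* UMIs at 1 dpi, where all progenitors held 980, so its levels are not those of progenitors alone. *Chil3*, an early gene of the index, was not called between progenitors and neutrophils. Cells within 0.05 of a limit between ranges were 11.97% and 14.5%. The azurophil sum was highest in the first range and fell step by step, from 21238 to 4649, 768 and 21.7 CPM at 1 dpi and from 22172 to 14392, 2541 and 46.7 CPM at 3 dpi. The last range held 35.0 and 37.0 CPM. Over these ranges *Elane* fell earlier than *Mpo*: in the second range of 1 dpi *Elane* was at 775 CPM of the 6713 CPM of the first, and *Mpo* at 2280 of 5945 CPM. The third range had 61.3 CPM of *Elane* and 368 CPM of *Mpo* there, and 382 and 1107 CPM at 3 dpi. With the cells of both lists kept, the first 2 ranges of 1 dpi had 5158 and 707 CPM of *Elane* and 4026 and 2083 CPM of *Mpo*. The cells of both lists alone went the other way. At 1 dpi they had 3167 CPM of *Elane* and 1626 CPM of *Mpo*, against 6707 and 6222 CPM in progenitors. At 3 dpi they had 4639 and 1863 CPM, against 7065 and 5711 CPM.

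*Ltf*, *Ngp* and *Mmp8* rose and then fell over the index in both libraries. *Camp* did so at 1 dpi, but at 3 dpi it dipped in the second range before its peak. *Ltf* climbed from 1827 CPM in the first range to 14447 CPM in the fourth and dropped to 2018 CPM in the last at 1 dpi, and at 3 dpi from 1076 to 15540 and then 1993 CPM. *Ngp* peaked in the fourth range at 41116 CPM at 1 dpi and 37146 CPM at 3 dpi, and ended at 7532 and 6642 CPM. With the cells of both lists kept, *Ngp* at 3 dpi dipped from 9686 CPM in the first range to 9033 CPM in the second. *Camp* at 1 dpi had 10404 CPM in the first range, 24710 CPM in the third, 24406 CPM in the fourth and 3495 CPM in the last. The third range and the fourth of 1 dpi overlap in their intervals, and with the cells of both lists kept the highest range was the first, at 25628 CPM. At 3 dpi *Camp* had 12146 CPM in the first range and 10079 CPM in the second, and peaked in the fourth at 28155 CPM. With the cells of both lists kept the fourth range was again the highest. The first range then had 19541 CPM and the second 11273 CPM. *Mmp8* rose over 4 ranges from 0.82 to 220.0, 1463 and 4087 CPM at 1 dpi and kept 2766 CPM in the last, and at 3 dpi went from 5.97 to 4558 and then 2582 CPM. Of the 4 genes, *Mmp8* thus kept the most of its peak level in the most mature cells. *S100a8* and *S100a9* together went from 53427 CPM in the first range to 210898 CPM in the fourth and 142080 CPM in the last at 1 dpi. At 3 dpi they went from 39960 to 156750 and then 97789 CPM. With the cells of both lists kept, both genes dipped from the first range to the second. *S100a8* went from 46726 to 39523 CPM at 1 dpi and from 22572 to 17044 CPM at 3 dpi. *S100a9* went from 60641 to 59667 CPM at 1 dpi and from 36037 to 28733 CPM at 3 dpi. The cycling genes, 6 genes of the cell division cycle, stood at 1075, 734, 501, 0 and 10.2 CPM over the ranges of 1 dpi and at 1307, 871, 156, 46.7 and 123 CPM over those of 3 dpi.

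**Figure D4:**
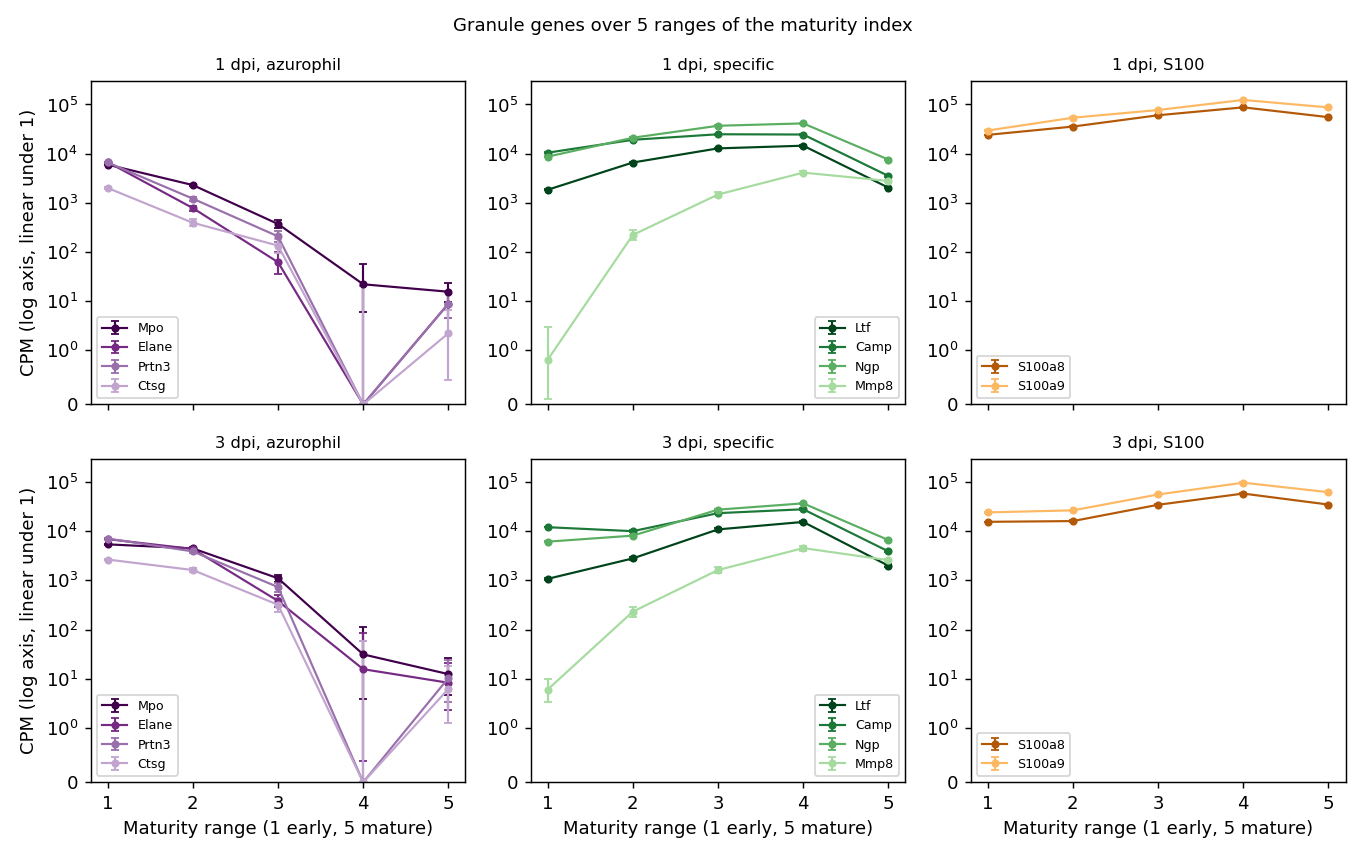
CPM (vertical axis, log scale that is linear under 1) of the azurophil genes (left), the specific granule genes (middle) and *S100a8* and *S100a9* (right) in 5 ranges of the maturity index at 1 dpi (top) and 3 dpi (bottom), with 95% counting intervals. Azurophil genes fall from the first range on, *Ltf* and *Ngp* peak in the fourth, and *Mmp8* starts at 0.82 and 5.97 CPM.

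Neutrophils of the 4 libraries were then set side by side. *Ltf* stood at 3586, 6813, 6962 and 1381 CPM in Uninjured, 1, 3 and 7 dpi, and *Mmp8* at 1059, 2286, 2041 and 545 CPM. *Camp* stood at 15389, 16648, 23749 and 6965 CPM and *Ngp* at 20931, 22773, 22123 and 7050 CPM. All 4 were lowest at 7 dpi. *Ltf* was 1.90-fold higher at 1 dpi than in Uninjured (1.77 to 2.04) and *Mmp8* 2.16-fold (1.90 to 2.47). *Camp* and *Ngp* were 1.08-fold and 1.09-fold higher, a direction that turned when the UMIs of the 10 genes were left out of the total. None of the 8 genes tested reached 4-fold in either direction, where 4.61% of 6622 genes were higher and 0.0755% lower. From 1 to 3 dpi the 4 azurophil genes were called higher, carried by the 10 cells described above, where 0.925% of 7568 genes were, and none of the 10 was called lower, where 0.198% were. *Ltf*, *Mmp8* and *Ngp* differed less between these libraries, at 1.02-fold, 0.893-fold and 0.971-fold, and each of these 3 directions turned under another setting.

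At 7 dpi few neutrophils held specific granule RNA. *Ltf* was 5.04-fold lower than at 3 dpi, *Mmp8* 3.74-fold, *Camp* 3.41-fold and *Ngp* 3.14-fold lower. At least 4-fold lower were *Ltf*, *Mpo*, *Elane* and *Prtn3*, where 5.21% of 5279 genes were, and for *Mpo* and *Elane*, without a UMI at 7 dpi, the difference is at least 13.4-fold and 18.9-fold against the floor of 3 UMIs. The calls of these 3 azurophil genes rest on the 10 cells of 3 dpi, since without them *Mpo*, *Elane* and *Prtn3* had 8, 4 and 7 UMIs in the other 322 neutrophils of that library. None of the 10 was called higher, where 0.966% were. Against Uninjured the specific granule genes of 7 dpi were 2.57-fold lower, and none of 6 genes tested was called in either direction, where 3.3% of 2330 genes were higher and 0.644% lower. *Camp* had a UMI in 7 of 110 neutrophils at 7 dpi, which held 1316 UMIs, against 172 of 332 at 3 dpi, and *Mmp8* in 25 against 219. After thinning to 1000 UMIs 7.78% of neutrophils had *Camp* at 7 dpi and 51.5% at 3 dpi, with medians of 1292 and 1907 UMIs per cell before it. The log2 ratio of the specific granule genes was -1.78 as summed and -2.62 thinned. At 7 dpi 95 of 101 cells with a maturity index lay in the highest range. In that range alone the specific granule genes were 10.0-fold lower at 7 than at 3 dpi (8.74 to 11.5), with *Camp* at 422 against 3993 CPM, *Ngp* at 556 against 6796 CPM, *Ltf* at 127 against 2040 CPM and *Mmp8* at 443 against 2641 CPM. *S100a9*, by contrast, had 64042 and 64131 CPM there. The neutrophils of 7 dpi also carried *Ly6g* and *Cd177*, a neutrophil surface protein, in fewer cells, with *Cd177* in 12.7% against 53.0% at 3 dpi at these unequal depths. A difference between time points and one between libraries cannot be told apart here.

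*S100a8* and *S100a9* were in nearly every neutrophil, with a UMI of *S100a9* after thinning to 1000 UMIs in 96.5% to 98.1% of cells, against 0.590% to 12.1% of NK and T cells. *S100a8* stood at 122655, 67060, 46499 and 51203 CPM in Uninjured, 1, 3 and 7 dpi, and *S100a9* at 130069, 99646, 83075 and 73899 CPM. Together they stood at 252724 CPM in Uninjured and at 166706, 129573 and 125103 CPM in the later libraries, so other genes of the Uninjured neutrophils stand lower per total by construction. The sum was 1.52-fold lower at 1 dpi than in Uninjured, and 1.37-fold lower in the highest maturity range. The UMIs of *S100a8* per UMI of *S100a9* in neutrophils were 0.943 in Uninjured, 0.673 at 1 dpi, 0.560 at 3 dpi and 0.693 at 7 dpi, with intervals that do not overlap between any of these libraries except 1 and 7 dpi. In progenitors the ratio was 0.898 at 1 dpi and 0.711 at 3 dpi, higher than in the neutrophils of the same library. In the 2 progenitors of Uninjured it was 6.71, from 349 and 52 UMIs that were all in 1 cell.

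**Figure D5:**
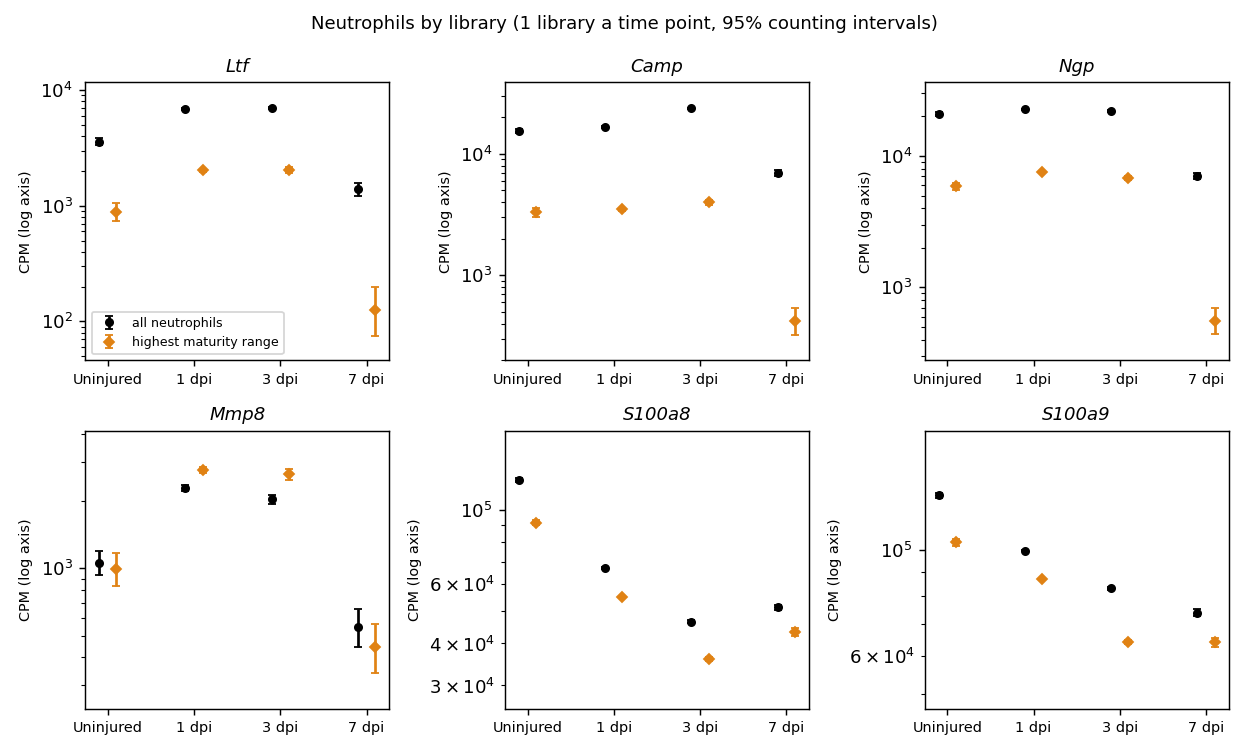
CPM (log axis) of the 4 specific granule genes and of *S100a8* and *S100a9* in neutrophils of the 4 libraries, for all neutrophils (black) and for those in the highest maturity range (orange), with 95% counting intervals and 1 library per time point. *Ltf*, *Camp*, *Ngp* and *Mmp8* are lowest at 7 dpi in both, whereas *S100a9* in the highest range is level between 3 dpi at 64131 CPM and 7 dpi at 64042 CPM.

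Progenitors differed little between the only libraries with more than 2 of them. None of the 9 genes tested was called in either direction from 1 to 3 dpi, where 0.123% of 9768 genes were called each way. *Camp* was 1.50-fold higher at 3 dpi (1.47 to 1.53), *Ctsg* 1.35-fold higher, *Mpo* 0.918-fold and *Elane* 1.05-fold. In Uninjured 1 of the 2 progenitors held all 124 *Mpo* and 260 *Elane* UMIs, and the single progenitor of 7 dpi held no UMI of any of the 10 genes.

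Among 14 other granule genes, 3 were marker genes (*Prss57* of the progenitors, *Mmp9* and *Cd177* of the neutrophils) and are left aside, and of the remaining 11, 10 had enough UMIs. At 1 dpi 6 of these 10 were at least 4-fold lower in progenitors, where 7.58% of all genes were, and at 3 dpi 6, where 6.39% were. The other 4, *Cyba*, *Ctsc*, *Srgn* and *Chil3*, were not called, and none was called higher. *Lcn2*, the iron-scavenging lipocalin of specific granules, was 12.7-fold lower in progenitors at 1 dpi and 11.99-fold lower at 3 dpi, and *Olfm4*, a specific granule protein of a subset of neutrophils, 20.2-fold and 7.54-fold lower. *Lyz2* (lysozyme), *Cybb* (the oxidase subunit), *Itgam* (CD11b) and *Mmp25* were also lower, by 11.2-fold, 5.93-fold, 8.85-fold and 90.2-fold at 1 dpi. *Srgn*, whose proteoglycan core holds granule proteins, was at 2767 and 3471 CPM at 1 dpi. Among granule protease inhibitors *Slpi* was 5.51-fold lower at 1 dpi, while *Serpinb1a*, which blocks elastase and cathepsin G, stood at 450.0 CPM in progenitors and 182 CPM in neutrophils. Among transcription factors not used as markers, *Cebpa* was called higher in progenitors, 4.62-fold and 4.38-fold, and *Cebpb* lower, 13.2-fold and 12.8-fold, at 1 and 3 dpi. *Cebpd*, *Spi1* and *Runx1* were not called. Of the 6 cycling genes 5 were called higher in progenitors at 1 dpi, where 24.3% of all genes were, and 1, *Tyms*, at 3 dpi, a share near the 13.8% of all genes.

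Over 40 sums of a class in a library with at least 50 cells, the genes whose log10 level ran most like the azurophil sum, after the marker gene *Ms4a3*, were *Sh2d5* (Pearson r 0.887), *Mfsd13a* (0.876), *Hsd17b1* (0.837) and *Mtfr2* (0.837). Most like the specific granule sum were *Lcn2* (0.951), *Wfdc21* (0.948, a marker gene), *Trem3* (0.939), *Pram1* (0.932) and *4930438A08Rik* (0.928). Most like *S100a8* and *S100a9* were *Lcn2* (0.931), *Wfdc21* (0.929), *Scnn1a* (0.907), *Adpgk* (0.907) and *Mrgpra2b* (0.902). The sums share libraries, and free RNA of the same library can enter each of them.

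Outside both gates the genes were mostly far lower than in the gate where each was highest, but some classes stood above NK and T cells. Over all libraries the azurophil genes stood at 106 CPM in endothelial cells and 23.6 CPM in NK and T cells. *Mpo* had a UMI in 12 of the 312 endothelial cells. The specific granule genes stood at 203 CPM in dendritic cells and 60.3 CPM in NK and T cells. A specific granule UMI was found in 70 of the 439 dendritic cells. After thinning to equal depth, 2.51% of dendritic cells (1.26% to 4.45%) and 3.53% of NK and T cells (2.89% to 4.27%) had one. The higher sum in dendritic cells was therefore not matched by a higher share of cells. Mast cells and basophils had *Mpo* at 1009 and 698 CPM and *Ctsg* at 830 and 676 CPM at 1 and 3 dpi, with *Elane* at 10.4 and 33.5 CPM. In 34 cells of 1 dpi with a UMI of the basophil protease *Mcpt8* and none of the mast cell proteases *Cma1* and *Mcpt4*, *Mpo* stood at 1270 CPM and *Ctsg* at 1031 CPM, and 19 and 22 of the cells had a UMI. In the 15 cells with the mast cell proteases and without *Mcpt8*, no *Mpo* UMI was found and *Ctsg* stood at 211 CPM. The split was alike at 3 dpi, with 118 *Mpo* UMIs in 19 cells of the first kind and 0 in 31 of the second. Among monocytes and macrophages, *Prtn3* stood at 376 CPM (349 to 405) at 3 dpi in 347 cells with fewer than 2 UMIs of the complement genes *C1qa* and *C1qb*, and at 11.4 CPM in 571 cells with 2 or more. NK and T cells of that library had 12.8 CPM. The cells with fewer C1q UMIs had 47.9 CPM at 1 dpi, 11.4 CPM in Uninjured and 26.9 CPM at 7 dpi. Over all libraries *Prtn3* had a UMI in 255 of 3229 monocytes and macrophages. How many cells carried the sums of the 2 sets is not given here. *Mmp8* in the same 2 sets of 3 dpi was at 46.5 and 3.80 CPM, against 1.94 CPM in NK and T cells.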

How the data were processed

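Whole-number UMI counts per gene and cell were deposited by the authors for 4 10x libraries, after alignment and cell calling with Cell Ranger 5.0.0 (per the labels, mm10), without scaling. The submitters' processing notes also name Seurat 3.1.1. The methods mention that reads were down-sampled; if this came before or after the deposited tables is not given in the sources used here. Libraries held 112317902, 91146335, 116346301 and 129007669 UMIs (Uninjured, 1, 3 and 7 dpi) in 12031, 11722, 15160 and 23752 cells. The methods' limits of 2 SD on UMIs and genes, here on log10 values, and of 10% mitochondrial UMIs left 11168, 10332, 13629 and 22026 cells. The upper limit removed 36 of 166 progenitors of 1 dpi, and the lower one 29 of 82 Uninjured neutrophils.

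Cells were gated by 15 marker lists, with at least 3 detected genes and the highest share of the list. Ties were left out, as were cells with over 50% of a second list, in place of a doublet caller. UMIs were summed per class and library, divided by all UMIs of the class and multiplied by 1000 times 1000 (CPM), with exact Poisson intervals, exact Clopper-Pearson intervals for shares and conditional binomial intervals for ratios. A call needed 4-fold and 20 UMIs in the higher class, and 0 UMIs were set to a floor of 3 UMIs of the class. No p-values were computed, since each time point had 1 library. Identifiers matched GENCODE M21 for 99.6% of genes, on GRCm38, the assembly behind mm10. Names follow a fixed rule: the 10 genes, the other granule genes, inhibitors, transcription factors and cycling genes as listed, and for each group of granule genes the 5 with the most like pattern. The monocyte gene split of the progenitors, the split of basophils from mast cells and that of monocytes by C1q genes, and the sequence motifs, are descriptions added with the data in view. Members and lists were chosen with earlier results of these data known. Software was matplotlib 3.10.9, scipy 1.17.1, numpy 2.4.6 and pandas 2.3.3 under Python 3.11.15. The intervals of ratios were tested on sums simulated with counting error only, so that test does not cover spread between cells. The thinning was checked on cells of 3 dpi for its UMI total only.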

Additional observations from a re-analysis of the deposited data

Results flagged for a closer look

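For *Mpo* and *S100a9* the ratios of 3 to 1 dpi lay on opposite sides of 1 in the 2 classes. The ratio of *Mpo* CPM at 3 dpi to that at 1 dpi was 0.918 in progenitors and 14.7 in neutrophils, where 10 cells held most azurophil UMIs. Without these 10 cells *Mpo* stood at 9.43 CPM (4.07 to 18.6) in neutrophils of 3 dpi. All neutrophils of 1 dpi had 14.5 CPM, so the rise of *Mpo* rests on the 10 cells. The ratio of *S100a9* was 1.02 in progenitors and 0.834 in neutrophils. With 1 library per time point these differences were not tested.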

How the results depend on the processing

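Values here are log2 ratios, and 15 of 69 alternative values of the 6 group ratios lay within the counting interval, 54 outside it and none changed sign. With cells holding many markers of a second class kept, the azurophil ratio of progenitors to neutrophils became 4.21, against 7.06 thinned to 1000 UMIs, 6.25 without member UMIs in the total, 6.66 less the NK and T cell level and 6.89 as the mean within libraries. Leaving out a library gave 5.28 to 9.24. The specific granule ratio was -2.63 without a cell filter, -1.82 with linear limits, -2.28 and -2.35 with at least 4 and 2 markers, -1.83 with mixed cells, -1.34 thinned, -2.59 without member UMIs, -1.32 without cells with monocyte genes and -2.45 within libraries, and -2.47 to -2.15 with a library left out. For *S100a8* and *S100a9* the same settings gave -2.81, -2.22, -2.52, -2.60, -1.89, -2.13, -2.83, -1.68 and -2.44, and -2.62 to -2.51. In neutrophils at 1 dpi against Uninjured the specific granule genes gave 0.24 as reported, 0.47 without a filter, 0.49 with linear limits, 0.30 and 0.31 with 4 and 2 markers, 0.65 with mixed cells, 0.38 thinned, 0.092 without member UMIs and 0.52 in the highest maturity range, the last chosen after seeing the data. *S100a8* and *S100a9* gave -0.60 as reported, then -0.46, -0.44, -0.55, -0.54, -0.32, -0.75 without member UMIs and -0.46 in the highest range. At 7 against 3 dpi, with all settings chosen after seeing the data, the specific granule genes gave -1.78, then -1.85 without a filter, -1.70 with 4 markers, -1.98 with mixed cells, -2.62 thinned, -1.86 without member UMIs and -3.32 in the highest range. Of 301 values for single genes, 7 changed sign: *Ltf* at 3 against 1 dpi (-0.010 with 2 markers, -0.26 with mixed cells, -0.023 without member UMIs), *Camp* and *Ngp* at 1 dpi against Uninjured (-0.038 and -0.030 without member UMIs), and *Ngp* and *Mmp8* at 3 against 1 dpi (0.12 and 0.0080 thinned). The causes were not tested. No paired analysis was possible because each time point has 1 library. The 53 Uninjured neutrophils and 2 progenitors limit every value of that library.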
